A study of Homo sapiens with 28 samples.

Results

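The genes followed, 10 in number, mark or drive the mesenchymal cell state. They were the transcription factors SNAI1, SNAI2, TWIST1, TWIST2, ZEB1, ZEB2 and PRRX1, the intermediate filament protein VIM, and the cadherins CDH2 and CDH11. These genes were chosen by name, with earlier results of these data known, as were the gene lists counted below. Shares of them set beside all probe sets are therefore not those of a blind choice. Every probe set that the platform annotation gives to one of the genes alone was taken. This gave 10 of 19775 genes and 25 of 41091 single-gene probe sets. The number of probe sets was 5 for ZEB2, 4 each for ZEB1 and CDH11, 3 for PRRX1, 2 each for TWIST2, VIM and CDH2, and 1 each for SNAI1, SNAI2 and TWIST1. Probe sets of a gene are lettered from a, the brightest by mean log2 signal over all arrays. The cells were SK-N-AS, an established human neuroblastoma line. In its derivative called here the MYCN line (SK-N-AS-tet, MYCN), MYCN is induced by adding doxycycline. Its 21 arrays cover 7 time labels, 0, 4, 8, 24, 48, 96 and 192, with 3 replicates each. The mock line (pcDNA6TR) carries the tet repressor vector, was given doxycycline as well, and has 1 array at each of the 7 times, 7 arrays in all. The labels give no unit of time. They do not say whether a line is a single clone, nor whether arrays came from separate cultures. The p-values therefore reflect only how these samples scatter, and that scatter may be technical.

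SNAI1 and SNAI2, ZEB1 and ZEB2, and TWIST1 and TWIST2 are DNA-binding factors best known from the epithelial-to-mesenchymal transition, in which cells give up E-cadherin junctions and gain motility. PRRX1 is a homeodomain factor of embryonic mesenchyme, vimentin (VIM) is the filament protein of mesenchymal cells, and CDH2 (N-cadherin) and CDH11 (OB-cadherin) join such cells to each other. Neuroblastoma cells are known to occupy either an adrenergic state, kept by factors such as HAND2, or a mesenchymal state in which PRRX1 is one of the leading factors.

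Levels are deposited intensities (linear), and a change is a difference of log2 intensities, given with its standard error (SE). Tests used limma over 24655 probe sets whose mean log2 signal reached the 40th percentile, a signal of 9.96, with Benjamini-Hochberg adjustment over all of them, and a probe set was called at an adjusted p under 0.05. Of the 25 probe sets 18 passed this filter, from 9 of the 10 genes. The other 7 were the 4 of CDH11 and 3 of the 5 of ZEB2, and they are described by their levels. The number of arrays limits the precision.

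The MYCN probe set averaged 84.0 ± 17.5 at time 0, 2168 ± 820 at time 4 and 3193 ± 112 at time 192 (SD, n = 3 each, MYCN line). It read 1.6 to 3.0 in the 7 mock arrays. The arrays were split into 2 batches at the widest gap in a spiked hybridisation control, a rule that always gives 2 groups and does not use the labels. Replicates 1 and 2 of the MYCN line formed batch 1, and its replicate 3 and the mock line formed batch 2. The lines also stood apart in genes other than the 10. The summed level of the 10 noradrenergic markers with a probe set was 508 to 763 in the MYCN line, against 2975 to 3302 in the mock line, and the median level passed 9.96 for 5 of them in MYCN-line arrays and 8 in mock arrays. PHOX2A had a median of 4.3 in MYCN-line arrays and 739 in mock arrays. The defining enzymes DBH and TH were near the floor in both, with medians of 1.6 and 0.9 in MYCN-line arrays and 1.7 and 0.8 in mock arrays. PTPRC, a leukocyte marker, had a median of 13.7 in MYCN-line arrays and 227 in mock arrays. The part of these differences in the line comparison of the 10 genes was not tested.

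In the MYCN line TWIST2 rose and TWIST1 and PRRX1 fell late in the time course, while no probe set of SNAI1, SNAI2, ZEB1, ZEB2 or CDH2 passed the test against time 0. No probe set of the 10 genes was called at time 4, 8 or 24, where 0.00811%, 0.341% and 4.36% of all probe sets were called. At an unadjusted p under 0.05 the numbers were 0, 1 and 1 of 18, beside 1489, 2159 and 4472 of all 24655 probe sets. At time 48 a single probe set was called, of TWIST2, against 9.43% of all. With batch as a block TWIST1 was also called at time 24 (-0.40, adjusted p = 0.0453; 1 of 18, against 9.29% of all in that fit) and TWIST1, PRRX1 a and PRRX1 b at time 48 (4 of 18 with TWIST2, against 16.6% of all). At time 96, 5 of 18 were called (27.8%, against 16.2% of all), 1 higher and 4 lower, where 6.98% of all were higher and 9.24% lower. At time 192, 4 of 18 were called (22.2%, against 18.6% of all), 2 higher and 2 lower, where 8.17% of all were higher and 10.4% lower, a share near that of all probe sets. The 3 arrays of a time did not overlap the 3 of time 0 for 7 of 18 at time 96, against 29.9% of all, and for 7 of 18 at time 192, against 31.0% of all. The F-test over the 6 times called 5 of 18, against 18.0% of all. With the replicate number as a block, a pairing taken from the data at time 192, 7 of 18 were called there (38.9%, against 26.9% of all probe sets in that fit): the 3 added were PRRX1 a (-0.58, SE 0.17, adjusted p = 0.0171), VIM a (-0.19, SE 0.06, adjusted p = 0.0283) and VIM b (-0.63, SE 0.22, adjusted p = 0.0353). With batch as a block 6 of 18 were called at time 192 (33.3%, against 25.6% of all), PRRX1 a and VIM b being added. The median change of the 18 at time 192 was -0.10, against -0.02 over all probe sets tested. In bulk samples fewer cells of a type and less RNA per cell cannot be told apart.

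**Figure D1:**
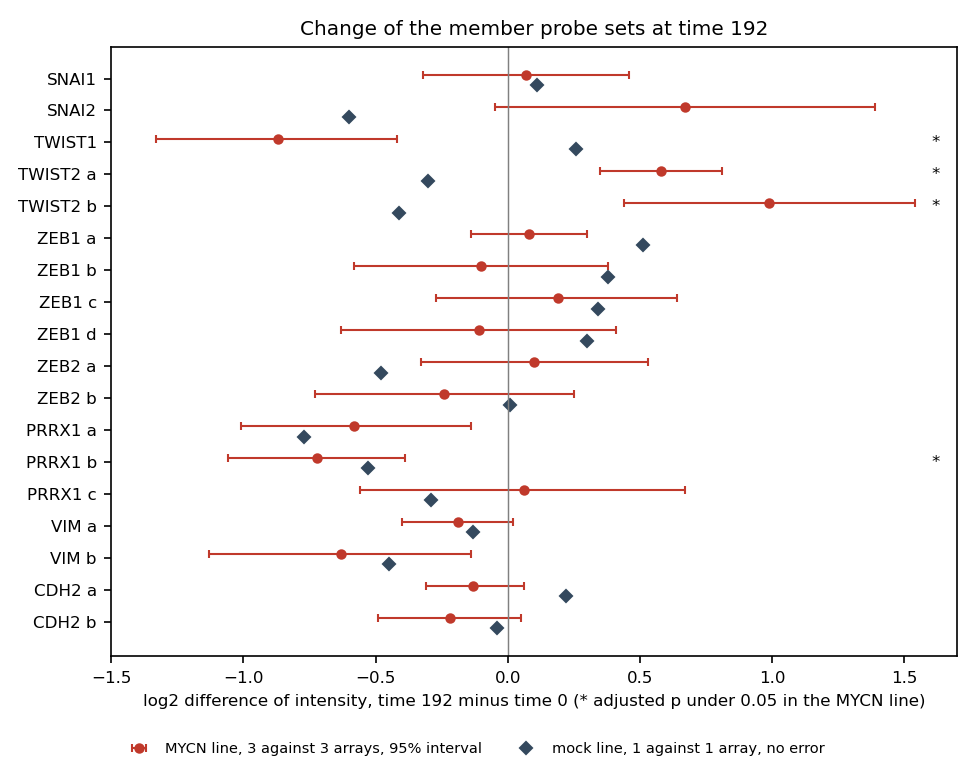
Log2 difference of intensity at time 192 against time 0 (x axis) for the 18 probe sets that passed the filter (y axis). Red points are the MYCN line with 95% intervals (3 against 3 arrays), dark diamonds are the mock line (1 against 1 array, no error), and stars mark the 4 called in the MYCN line. TWIST1 lies at -0.87 and the TWIST2 probe sets at 0.58 and 0.99, with the mock points on the other side of 0, while both lines lie below 0 for PRRX1 b.

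TWIST2, a basic helix-loop-helix factor of dermal and bone-forming mesenchyme, rose in the MYCN line. Its probe set a read 285.3, 310.8 and 293.6 at time 0, 399.0, 432.3 and 374.7 at time 48, then 373.3, 376.7 and 463.4 at time 96, and finally 410.1, 430.2 and 494.2 at time 192. All arrays of the 3 late times lay above those of time 0. The change was 0.44 (SE 0.11, adjusted p = 0.0149) at time 48, 0.44 (adjusted p = 0.00864) at time 96 and 0.58 (SE 0.11, adjusted p = 0.000855) at time 192. The call at time 192 held in all 20 alternatives run (0.50 to 0.65). The call at time 96 ended without any 1 of the 3 replicates (0.33 to 0.52). Without replicate 3, the same fit as within batch 1, the change was 0.33 (adjusted p = 0.0587). The call at time 48 ended without replicate 1 or 2, without the time 0 array of replicate 1 and without the time 48 array of replicate 2 (0.38 to 0.42). The mock arrays read 241.7, 208.4, 242.1, 229.4, 219.1, 241.8 and 196.7 over the 7 times, with the lowest value at time 192.

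The second TWIST2 probe set, b, is dim. It read 49.0, 68.7 and 63.1 at time 192, against 31.8, 33.8 and 25.3 at time 0, without overlap, and rose by 0.99 (SE 0.26, adjusted p = 0.0119). In 6 of 18 alternatives the call ended, among them within batch 1 (0.82, adjusted p = 0.0689), leaving out any 1 replicate, and leaving out the time 192 array of replicate 2 or the time 0 array of replicate 3 (0.82 to 1.17). Within batch 1 and without replicate 3 are the same fit, and both are among the 6. The mock line read 18.9, 15.6 and 17.2 at times 0, 4 and 8, then 23.3, 23.7 and 25.9 at times 24, 48 and 96. At time 192 it read 14.2, its lowest value. Its differences from time 0 at times 24, 48 and 96 were 0.3, 0.33 and 0.45, with no test. The MYCN line gave 0.35, 0.4 and 0.71 at those times, not called in the main fit. Both TWIST2 probe sets gave a positive change at time 192 in 3 of 3 MYCN-line replicates.

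TWIST1, the related factor of cranial and limb mesenchyme, moved the other way. Its single probe set read 628.1, 602.2 and 1000.5 at time 0, 464.0, 365.0 and 645.2 at time 48, 418.9, 346.2 and 497.5 at time 96, then 385.9, 378.3 and 421.0 at time 192. The 3 arrays of time 192 and of time 96 lay below those of time 0, and replicate 3, the one in batch 2, was the highest at each of these times. The change was -0.80 (SE 0.22, adjusted p = 0.0155) at time 96 and -0.87 (SE 0.22, adjusted p = 0.00725) at time 192, and within batch 1 it was -0.69 (adjusted p = 0.00514) and -0.69 (adjusted p = 0.00493). At time 48 it was not called, but was called with batch as a block (-0.60, adjusted p = 0.00206) and within batch 1 (-0.58, adjusted p = 0.0183). The call at time 192 ended without replicate 1 (-0.96, adjusted p = 0.0964) and without the time 0 array of replicate 3 (-0.64, adjusted p = 0.0554). The call at time 96 ended without replicate 1, without replicate 2, without the time 96 array of replicate 2 and without the time 0 array of replicate 3 (-0.90 to -0.56). In the mock line TWIST1 read 1405.7, 1083.9, 1449.3, 1276.5, 1218.4, 1194.1 and 1682.4 over the 7 times, with its highest value at time 192.

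PRRX1 fell by 2 of its 3 probe sets, and its mock arrays were lower at time 192 than at time 0 as well. Probe set b read 450.0, 472.3 and 441.1 at time 0, 254.1, 324.4 and 398.9 at time 48, 214.7, 186.4 and 307.2 at time 96, then 241.6, 307.2 and 281.7 at time 192. All arrays of times 48, 96 and 192 lay below those of time 0. The change was -0.98 (SE 0.16, adjusted p = 0.000325) at time 96 and -0.72 (SE 0.16, adjusted p = 0.00322) at time 192, and within batch 1 it was -1.20 (adjusted p = 5.87e-05) and -0.76 (adjusted p = 0.00168). The call at time 96 ended without replicate 2 (-0.80, adjusted p = 0.0688), and the call at time 192 ended without replicate 1 (-0.63, adjusted p = 0.074) or 2 (-0.77, adjusted p = 0.0555). At time 48, where b was not called, it was called with batch as a block (-0.50, adjusted p = 0.0213) and within batch 1 (-0.68, adjusted p = 0.00541).

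Probe set a of PRRX1 read 906.8, 896.5 and 779.5 at time 0, 376.0, 388.8 and 757.2 at time 96, then 452.9, 624.6 and 675.6 at time 192. Replicates 1 and 2 were far below time 0 at time 96, and replicate 3 was close to its own time 0 array. The change was -0.84 (SE 0.21, adjusted p = 0.00833) at time 96 and -0.58 (adjusted p = 0.0578) at time 192, and within batch 1 it was -1.24 (adjusted p = 2e-05) and -0.76 (adjusted p = 0.000867). With batch as a block it was called at time 48 (-0.52, adjusted p = 0.0422) and at time 192 (-0.58, adjusted p = 0.0173), and with only the arrays of the 2 times at time 192 (adjusted p = 0.0376). The call at time 96 ended without replicate 1, replicate 2, or the time 96 array of either (-0.69 to -0.62). The third probe set, c, read 47.1, 51.5 and 119.7 at time 96, against 87.1, 115.4 and 83.0 at time 0, again with replicate 3 apart, and was not called. It was called at time 96 within batch 1 (-1.03, SE 0.20, adjusted p = 0.003).

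In the mock line PRRX1 a read 1080.2, 974.8, 971.6, 922.4, 945.1, 765.3 and 631.3 over the 7 times, lowest at time 192. Its trend was -0.11 per time step (SE 0.02, adjusted p = 0.0383), the single call among the 18 probe sets, against 1.82% of all probe sets. That call ended in 6 of 14 alternatives, among them without the mock array of time 4, 8, 24, 96 or 192 (-0.12 to -0.08). Probe set b read 322.3 at time 192 and 464.7 at time 0 in the mock line, a difference of -0.53 with no test, beside -0.72 in the MYCN line. For a and c the order was the other way. The mock difference at time 192 was -0.77 for a, beside -0.58 in the MYCN line. For c the mock difference was -0.29, beside 0.06 in the MYCN line.

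**Figure D2:**
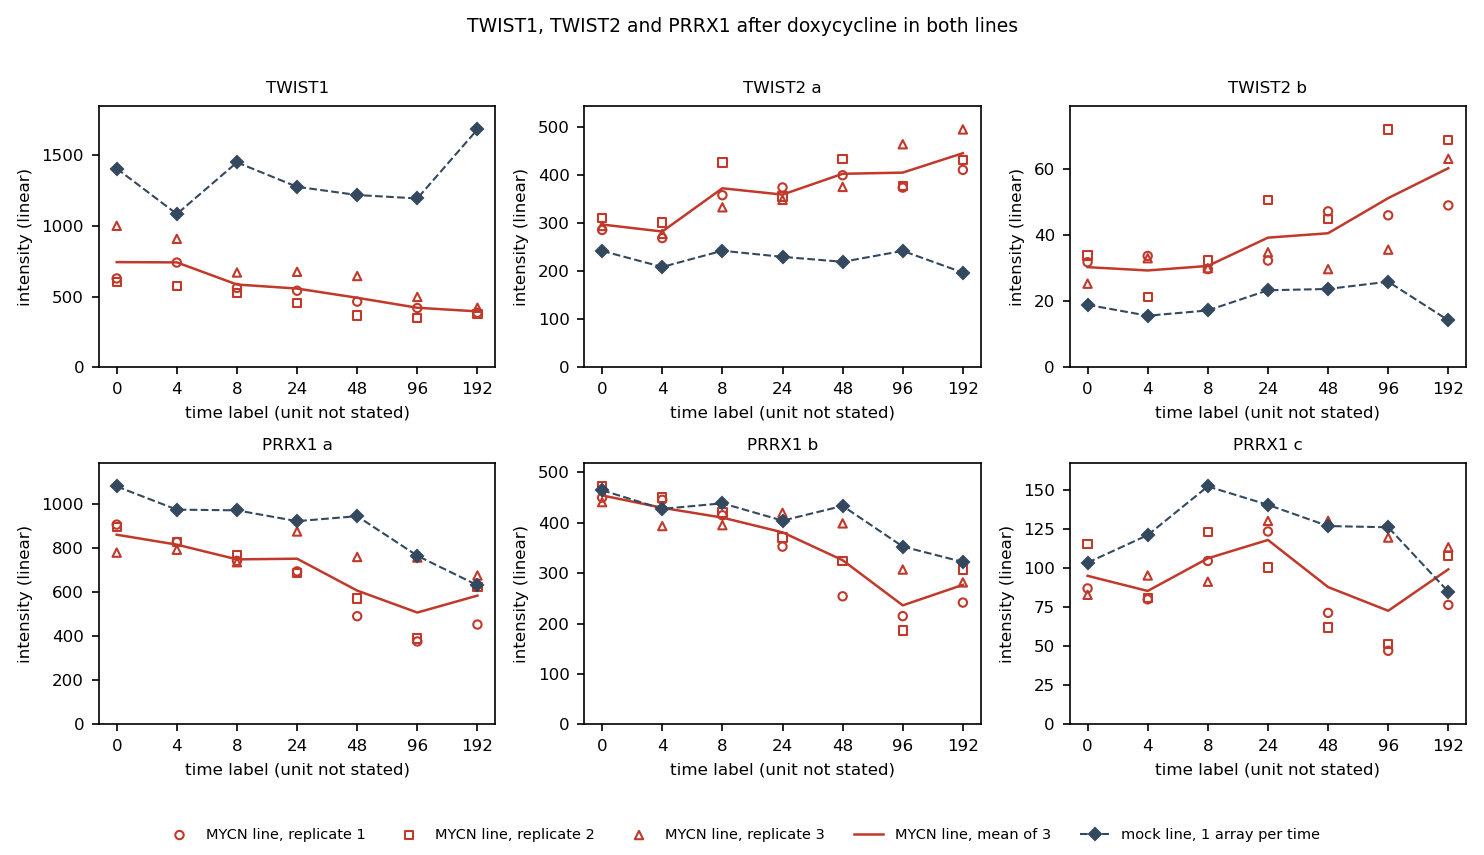
Intensity (linear, y axis) of TWIST1, TWIST2 and PRRX1 probe sets at the 7 time labels (x axis, unit not stated). Open red symbols are the 3 replicates of the MYCN line, the red line is their mean, and dark diamonds are the single mock arrays. TWIST2 a of the MYCN line climbs away from the mock line, TWIST1 moves down away from it, and PRRX1 a and b decline in both lines with replicate 3 of the MYCN line above the other replicates at time 96.

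The test of whether the trends differed between the lines used all 28 arrays and called TWIST1 and TWIST2 a, 2 of 18 (11.1%, against 17.1% of all probe sets). TWIST1 changed by -0.16 per time step in the MYCN line and 0.03 per step in the mock line, a difference of -0.19 (SE 0.05, adjusted p = 0.00994). TWIST2 a changed by 0.10 per step in the MYCN line and -0.02 per step in the mock line, a difference of 0.12 (SE 0.03, adjusted p = 0.00471). Within batch 2, where 11.4% of all probe sets were called, the differences were -0.23 (adjusted p = 0.00208) and 0.16 (adjusted p = 0.00489). Both calls ended without the mock array of time 192 (-0.14, adjusted p = 0.187, and 0.10, adjusted p = 0.0968) and when late times were set against early ones in place of a trend (-0.705, adjusted p = 0.0633, and 0.48, adjusted p = 0.0509). TWIST2 b was not called, with a difference in trend of 0.15 (SE 0.07, adjusted p = 0.148), and within batch 2 of 0.12 (adjusted p = 0.431). For PRRX1 the difference in trend was -0.02 (SE 0.05, adjusted p = 0.854) for a and -0.08 (SE 0.04, adjusted p = 0.244) for b, which does not show that the lines declined alike. Within batch 2 the sign for PRRX1 a was the other way, at 0.08 (SE 0.03, adjusted p = 0.0888). There b gave -0.02 (SE 0.03, adjusted p = 0.803) and c 0.13 (SE 0.06, adjusted p = 0.198), and none of these was called.

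RefSeq promoter windows ran from 250 bases before to 50 bases after the annotated start in build GRCh38.p14. They were at hand for 6 of the 10 genes, 13 windows in all, and not for SNAI1, SNAI2, TWIST1 or CDH11. Most of the windows were of ZEB1. Those of PRRX1 and TWIST2 are printed because these 2 genes moved in opposite directions in the MYCN line. The window of PRRX1 is chr1:170663881-170664180 on the plus strand and that of TWIST2 chr2:238847835-238848134 on the plus strand. Capitals mark the CCAAT box, read as CCAAT or its reverse complement ATTGG.
PRRX1: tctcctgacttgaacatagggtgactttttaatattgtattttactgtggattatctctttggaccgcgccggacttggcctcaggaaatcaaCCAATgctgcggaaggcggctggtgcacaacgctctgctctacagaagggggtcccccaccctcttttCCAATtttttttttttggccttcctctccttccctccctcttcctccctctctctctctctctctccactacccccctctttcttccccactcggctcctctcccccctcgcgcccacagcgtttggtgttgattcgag
TWIST2: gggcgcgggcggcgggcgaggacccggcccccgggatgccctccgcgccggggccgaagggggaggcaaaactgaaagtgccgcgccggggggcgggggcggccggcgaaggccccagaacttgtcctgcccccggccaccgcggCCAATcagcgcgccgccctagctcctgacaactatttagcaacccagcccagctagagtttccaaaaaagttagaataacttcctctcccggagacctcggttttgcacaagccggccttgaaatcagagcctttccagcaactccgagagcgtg
PRRX1 holds 2 such motifs, at -157 and -89 from the start, and TWIST2 holds 1, at -105. Both windows of CDH2, which was called at no time, hold 1 as well, at -76 and -67. The windows of ZEB1, ZEB2 and VIM hold none. A CCAAT box was present in 34.6% of 35116 promoter windows of all genes. CACGTG, the E-box that MYC proteins are known to bind, was in 0 of the 13 windows and in 7.26% of all windows. The looser CANNTG contains every CACGTG and reads the same on both strands. It was in 6 of 13 windows, most of them of ZEB1, in 68.7% of all, and in neither printed window. PRRX1 has 53.0% and TWIST2 66.7% G and C in this window. A match describes letters, and no match says only that these letters are not in this window.

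SNAI1 and SNAI2, the zinc finger repressors SNAIL and SLUG, did not pass the test at any time. SNAI2 read 694.8, 277.9 and 214.0 at time 192, against 244.3, 178.9 and 234.1 at time 0. Replicate 1 was far above its group, replicate 2 slightly above the arrays of time 0 and replicate 3 within them. The difference was 0.67 (SE 0.34, adjusted p = 0.198), with a 95% interval of -0.05 to 1.39. SNAI1 read 59.0, 38.6 and 52.5 at time 96, against 60.1, 73.2 and 73.4 at time 0, all lower, with a difference of -0.48 (SE 0.19, adjusted p = 0.0886). At time 192 it read 95.1, 61.4 and 64.0, and the groups overlapped. The mock line read 51.5 to 89.8 for SNAI1 and 232.3 to 351.3 for SNAI2, which was lowest there at time 192.

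ZEB1 and ZEB2, zinc finger homeobox repressors of E-cadherin, were called at no time. ZEB1 a read 702.1, 623.3 and 705.2 at time 192, against 554.2, 769.5 and 608.7 at time 0, and the groups overlapped. The difference was 0.08 with a 95% interval of -0.14 to 0.30. The other ZEB1 probe sets lay at 144 to 299 (b), 114 to 234 (c) and 19.1 to 34.7 (d) in the MYCN line, with differences at time 192 of -0.10, 0.19 and -0.11. ZEB2 a read 71.7, 68.5 and 74.9 at time 192, against 50.5, 66.5 and 89.0 at time 0, a difference of 0.10. The 3 ZEB2 probe sets under the filter read at most 14.7 in MYCN-line arrays and 20.4 in mock arrays.

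Vimentin was measured by a bright and a dim probe set. The bright one, a, read 5166.5, 4891.1 and 5553.8 at time 192, against 5843.5, 5645.2 and 6306.7 at time 0. All 3 lay below time 0, and the difference was -0.19 (95% interval -0.40 to 0.02). The dim one, b, read 69.8, 42.4 and 86.3 at time 96, against 141.1, 73.7 and 119.7 at time 0, and the groups overlapped. Its difference of -0.76 (SE 0.24, adjusted p = 0.0327) passed the test, but the call ended in 12 of 18 alternatives, among them leaving out any 1 replicate, the time 0 array of replicate 1 or 3, or the time 96 array of replicate 1 or 2 (-0.91 to -0.47). The suffix of its identifier, _x_at, marks a probe set whose probes can match other transcripts, as does that of CDH11 a.

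CDH2 was called at no time. Probe set a read 773.2, 878.1 and 793.9 at time 192, against 911.0, 932.7 and 825.0 at time 0, a difference of -0.13 with a 95% interval of -0.31 to 0.06. Probe set b read 364.3, 394.9 and 323.0 at time 192, against 407.4, 431.7 and 416.9 at time 0, a difference of -0.22 (95% interval -0.49 to 0.05). All 3 arrays of the second were below time 0, and those of the first overlapped it.

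**Figure D3:**
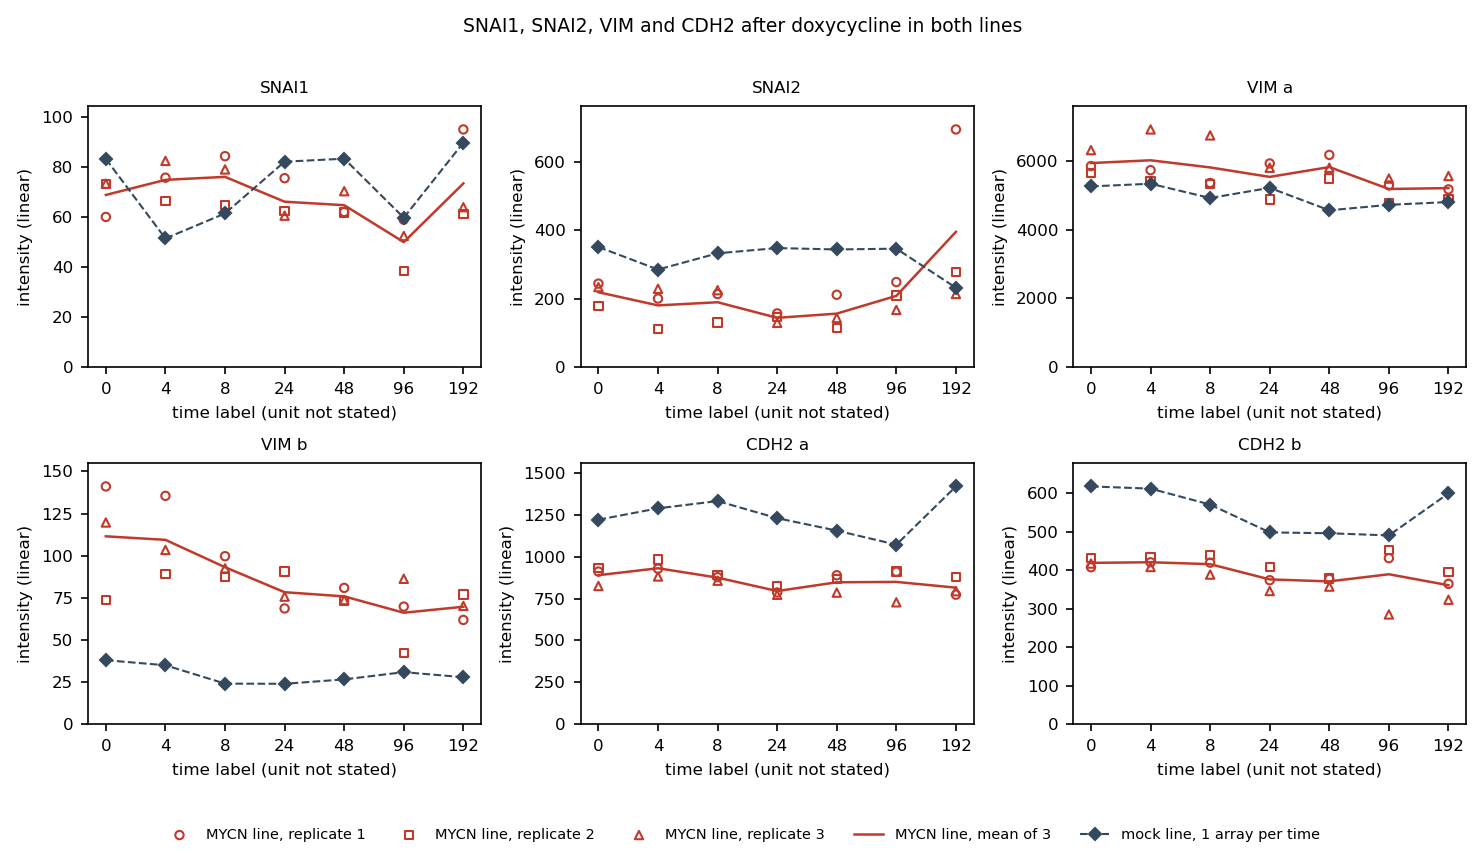
Intensity (linear, y axis) of SNAI1, SNAI2, VIM and CDH2 probe sets at the 7 time labels (x axis, unit not stated). Open red symbols are the 3 replicates of the MYCN line, the red line is their mean, and dark diamonds are the single mock arrays. Replicate 1 of SNAI2 stands at 694.8 at time 192, and both CDH2 probe sets lie below the mock line in all 21 arrays.

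Between the lines, CDH11 was near the floor in the MYCN line and bright in the mock line, CDH2 was lower in the MYCN line and the dim VIM probe set higher. At time step 0 of the fitted trends, 10 of 18 probe sets were called (55.6%, against 25.4% of all), 4 higher and 6 lower in the MYCN line, from 7 genes, where 13.5% of all were higher and 12% lower. Within batch 2, where 20.8% of all were called, 6 of 18 were called: both probe sets of VIM and of CDH2, ZEB1 c (0.46, SE 0.14, adjusted p = 0.0275) and PRRX1 a (-0.46, SE 0.11, adjusted p = 0.00602). CDH11 aside, the differences that held in all alternatives run were those of both CDH2 probe sets and of VIM b.

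CDH11, the cadherin of bone-forming and other mesenchymal cells, was near the bottom of the scale in all 21 arrays of the MYCN line and bright in all 7 mock arrays. Probe set a read 0.3, 1.3 and 7.3 (lowest, median and highest) in MYCN-line arrays, against 1302.2, 1397.8 and 1591.5 in mock arrays. Probe set b read 1.2, 2.2 and 3.8 in MYCN-line arrays, against 229.5, 272.0 and 383.9 in mock arrays. Probe set d read 0.2, 0.7 and 4.2 in MYCN-line arrays, against 170.9, 209.1 and 411.5 in mock arrays. All 4 probe sets were apart without overlap, the fourth, c, with 0.7, 2.8 and 10.5 in MYCN-line arrays, against 47.1, 58.5 and 90.3 in mock arrays.

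Set against the filter signal of 9.96 in place of readings near the floor, CDH11 was at least 143.2-fold, 28.7-fold and 23.8-fold lower in the MYCN line by probe sets a, b and d. No such bound is given for c, since 1 of its readings in the MYCN line passed 9.96. None of the 4 passed the filter on mean signal, which a gene bright in 7 of 28 arrays can miss. In the fit of all 41091 probe sets with no filter, where 14.9% were called for the lines, limma gave adjusted p-values of 1.27e-10, 2.72e-14, 5.38e-07 and 0.000712 for a, b, d and c. Among all 41091, 176 probe sets (0.428%) were under 9.96 in every MYCN-line array and above it in every mock array, and 3 of them were of CDH11; 27 showed the reverse.

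**Figure D4:**
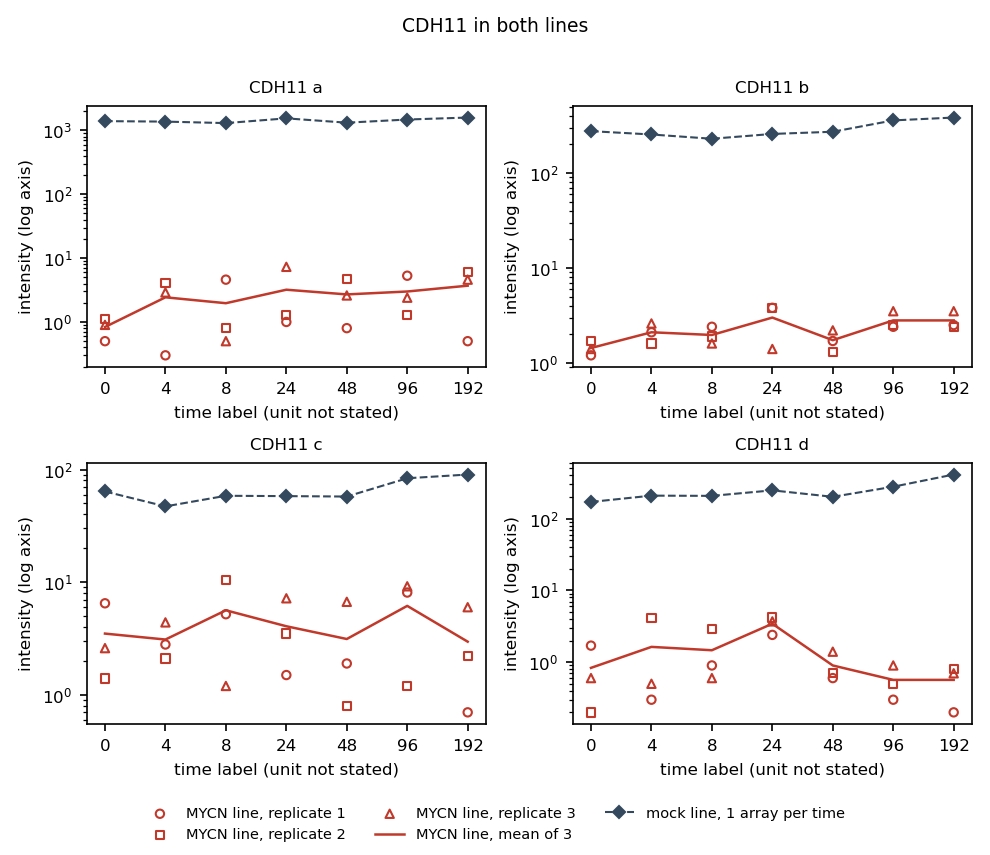
Intensity of the CDH11 probe sets (log10 y axis) at the 7 time labels (x axis, unit not stated). Open red symbols are the arrays of the MYCN line and dark diamonds the mock arrays. Readings of a are at most 7.3 in the MYCN line and at least 1302.2 in the mock line at all times.

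CDH2 was lower in the MYCN line at every time. Probe set a read 727.6, 877.7 and 982.9 (lowest, median and highest) in its 21 arrays, against 1071.5, 1229.9 and 1419.3 in the 7 mock arrays, without overlap. The difference was -0.47 (SE 0.09, adjusted p = 0.000195), and within batch 2 it was -0.54 (adjusted p = 0.00148). Probe set b gave -0.48 (SE 0.12, adjusted p = 0.00192), and within batch 2 -0.49 (adjusted p = 0.00801), again without overlap.

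VIM b was higher in the MYCN line, by 1.75 (SE 0.21, adjusted p = 1.65e-07) and within batch 2 by 1.76 (adjusted p = 1.44e-05). It read 42.4 to 141.1 in the MYCN line, against 24.0 to 38.0 in the mock line. The bright VIM probe set was 0.19 higher (SE 0.09, adjusted p = 0.102), so the 2 probe sets gave differences of unequal size. Within batch 2 the bright one was called at 0.35 (SE 0.07, adjusted p = 0.00177).

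The other 7 calls between the lines ended within batch 2. TWIST1 was lower by the fit (-0.72, SE 0.19, adjusted p = 0.00418; within batch 2 -0.31, adjusted p = 0.147), and its arrays did not overlap between lines. TWIST2 a was higher (0.31, SE 0.11, adjusted p = 0.0404; within batch 2 0.20, adjusted p = 0.265), also without overlap. SNAI2 was lower (-1.07, SE 0.36, adjusted p = 0.0285; within batch 2 -0.68, adjusted p = 0.0505). ZEB1 was higher by 2 of 4 probe sets, 0.29 (adjusted p = 0.0341) and 0.61 (adjusted p = 0.0217), and within batch 2 by 0.25 and 0.15 (adjusted p = 0.08 and 0.557). These are levels at the first time step. In the mock line ZEB1 a read 491.0 at time 0 and 700.9 at time 192, where the MYCN line averaged 676.9. Its mock trend by limma was 0.09 per time step (SE 0.02, adjusted p = 0.0624), not called. ZEB2 was lower by both tested probe sets, -0.63 (adjusted p = 0.00561) and -0.58 (adjusted p = 0.0384), and within batch 2 by -0.27 and -0.19 (adjusted p = 0.223 and 0.606). Leaving out the mock array of time 0 ended the calls of SNAI2 (-1.05), TWIST1 (-0.56), TWIST2 a (0.34), ZEB1 a (0.31), ZEB1 b (0.47) and ZEB2 b (-0.72), with adjusted p of 0.0615 to 0.222. Leaving out the mock array of time 4 ended those of TWIST2 a (0.23), ZEB1 a (0.26) and ZEB2 b (-0.52), that of time 8 those of ZEB1 a (0.28), ZEB1 b (0.54) and ZEB2 b (-0.59), and that of time 192 those of SNAI2 (-0.96), ZEB1 a (0.28) and ZEB2 b (-0.51). The call of TWIST2 a also ended without the mock array of time 96, and those of TWIST2 a, ZEB1 a and ZEB2 b without single MYCN-line arrays of times 0, 4 or 8. Over all 25 probe sets the 2 lines did not overlap for 10, from 6 genes. The MYCN line was higher for 2 of these and lower for 8. Of the 10, 4 were the CDH11 probe sets, which did not pass the filter. No share over all single-gene probe sets, tested or not, was at hand, so that count has no background. For the 18 that were tested the count was 6 (33.3%, against 14.2% of all tested probe sets). Of these, 2 were higher (6.44% of all tested) and 4 lower (7.73% of all tested).

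**Figure D5:**
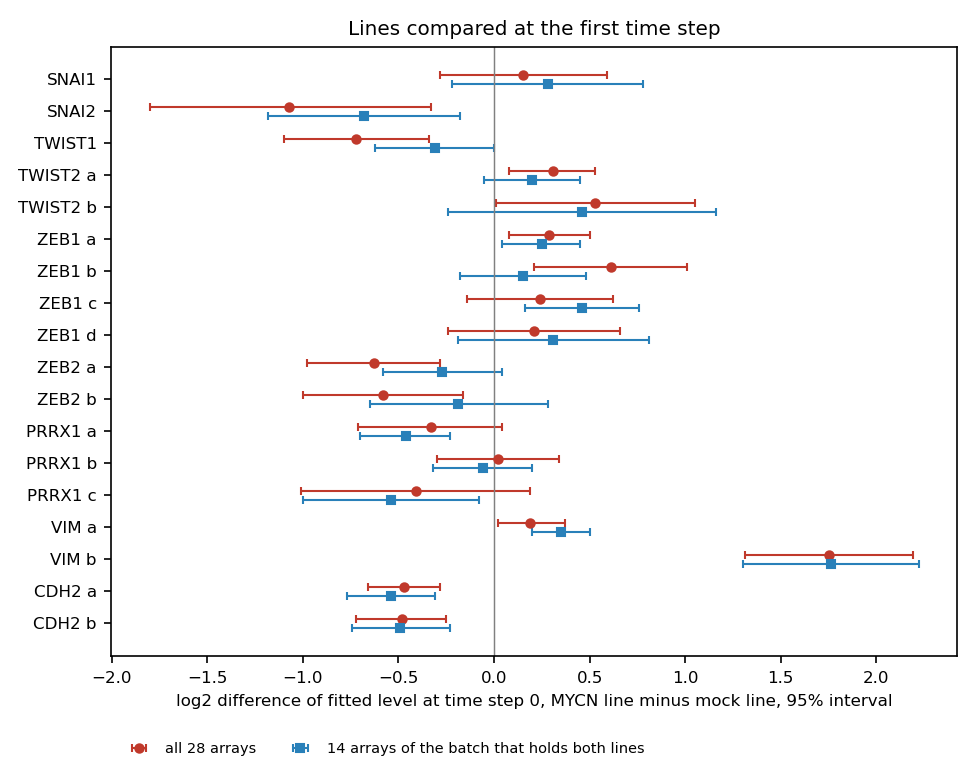
Difference between the lines at time step 0 of the fitted trends (x axis, log2, MYCN line minus mock line) for the 18 probe sets that passed the filter (y axis), over all 28 arrays and within batch 2, with 95% intervals. VIM b lies at 1.75 over all arrays and 1.76 within batch 2, CDH2 a at -0.47 and -0.54, and TWIST1 at -0.72 and -0.31.

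Genes that work with these 10 were counted at time 192 in the MYCN line, with 1 probe set a gene, the brightest. Over all probe sets tested there, 8.17% were called higher and 10.4% lower. These shares are not restricted to the brightest probe set of a gene, so they are not a like background for the list counts. Of 16 mesenchymal effector genes 9 fell and 1 rose, with a median of -0.36, against -0.02 over all probe sets. The matrix protein FN1 fell by 2.99 (SE 0.27, adjusted p = 5.2e-07), smooth muscle actin ACTA2 by 2.20 (SE 0.36, adjusted p = 0.000239), the matrix protein TNC by 1.60 (SE 0.33, adjusted p = 0.00195) and the collagen COL3A1 by 1.21 (SE 0.18, adjusted p = 0.000109). The one that rose was CD44, a hyaluronan receptor, by 1.37 (SE 0.31, adjusted p = 0.00353), named after its value was seen. The difference in trend from the mock line was called for FN1 (-0.63 per time step), ACTA2 (-0.42) and COL3A1 (-0.25). For TNC it was -0.08 (adjusted p = 0.672), and TNC fell in the mock line too, by 0.29 per step (adjusted p = 0.0258). Among 12 other mesenchymal-state factors FOSL1, SIX4 and FOXF1 rose, by 1.80, 0.89 and 1.47, SOX9 did not pass (0.91, adjusted p = 0.054), and TBX18, named after its value was seen, fell by 0.51. The trends of FOSL1 and FOXF1 differed from the mock line's by 0.42 (adjusted p = 0.00226) and 0.40 (adjusted p = 0.000227). That of SIX4 differed by -0.03 (adjusted p = 0.82), with a mock trend of 0.18 (adjusted p = 0.103). Of 10 E proteins and corepressors, the dimer partners and cofactors of the TWIST, SNAI and ZEB factors, CTBP2 and HDAC2 rose by 0.29 and 0.30, and TCF4, an E protein, fell by 0.97 (SE 0.19, adjusted p = 0.00149), while HDAC1 did not pass (0.17, adjusted p = 0.314). The difference in trend was called for TCF4 (-0.17, adjusted p = 0.0114) and not for CTBP2 (0.04, adjusted p = 0.465) or HDAC2 (0.06, adjusted p = 0.0963).

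The lists of junction genes and other partners are small, and their counts stand beside the 18.6% of all probe sets called at time 192. An unadjusted p under 0.05 was reached there by 7469 of all 24655 probe sets. By limma 0 of 3 classical cadherins passed (0 at an unadjusted p under 0.05), with CDH24, CDH22 and CDH10 at 0.18, -0.29 and -0.27. Of 4 catenins JUP (plakoglobin) fell by 1.03 (SE 0.25, adjusted p = 0.00568), and CTNNA1, CTNNB1 and CTNND2 did not pass, at 0.16, 0.11 and 0.60. Of 7 intermediate filament partners 0 passed (2 at an unadjusted p under 0.05), with LMNA at -0.39, PLEC at 0.38, KRT8 at -0.53 and KRT18 at 0.27; the lamin gene LMNA was called at time 96 (-0.56, SE 0.15, adjusted p = 0.0129). Of 7 epithelial genes TJP1 rose by 0.46 (adjusted p = 0.00391) and MUC1 fell by 1.39 (adjusted p = 0.000212). CDH1 (E-cadherin) had a median of 1.0 in MYCN-line arrays and 1.1 in mock arrays, and EPCAM 3.4 in MYCN-line arrays and 6.2 in mock arrays. Of 11 TGF-beta pathway genes 1 fell, TGFBR3 (-0.78, SE 0.27, adjusted p = 0.049), and SMAD7, TGFB2 and TGFBR1 did not pass, at 0.71, 0.63 and 0.11. Marker counts for other cell types were 2 higher (GATA2 and GATA3) and 1 lower (ISL1) of 6 noradrenergic genes, 0 of 2 Schwann cell genes, 0 of 1 endothelial gene, 0 of 2 epithelial genes and 1 lower of 1 leukocyte gene, PTPRC (adjusted p = 0.00363). PTPRC averaged 2.77 at time 192, under the filter signal of 9.96, and 21.03 at time 0, so no size is given for its fall.

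The genes whose level followed each of the 3 moving factors most closely over the 21 arrays of the MYCN line were found among 12534 genes, by Pearson's r on log2 intensity, as a description with no test, since arrays of a time and batch share both. For TWIST2 they were FASTKD1, CIPC and MAP3K21 (r = 0.896, 0.888 and 0.880). For TWIST1 they were RTN4, SEPTIN7 and CUL1 (r = 0.936, 0.928 and 0.918). For PRRX1 they were EDEM3, HNRNPH3 and GNG2 (r = 0.941, 0.939 and 0.937).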

How the data were processed

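Each array has 1 deposited intensity, on a linear scale, for each probe set. Per the submitters' processing notes the authors used MAS5 and GCOS (versions not given in the sources used here). The mean after trimming 2% at either end was 100 in every array, and no further normalization was applied. The deposited intensities were taken to log2, with 91 values at or under 0 set to 0.1. Of 54675 probe sets, 41091 named 1 gene, 1801 several and 11721 none, and 62 were controls. Models were fitted with limma 3.58.1 in R 4.3.3, using lmFit and eBayes with an intensity trend, after being tested on simulated data. The times were fitted over 21 arrays (14 residual degrees of freedom), the mock trend over 7 arrays (5) on the time step, and the line terms over 28 arrays (24); p-values were two-sided. The members, lists and tests were chosen with earlier results of these data known. All members were named; from each list the 4 genes with the smallest F-test p were named (all where fewer were tested). CD44, TBX18, CDH1, EPCAM and the cell type markers were named outside that rule.

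Batches were read from the bioD spike, at 1231 to 1537 in batch 1 and 1773 to 2069 in batch 2. Deviations of same-numbered arrays from their group means correlated with time 0 at 0.105, 0.1 and 0.199 at time 192 (replicates 1 to 3, the second over 0.1 before rounding) and at 0.154 or more at times 4 and 8, so the numbers were taken as pairs there. Replicate 2 gave -0.0287, 0.0367 and 0.0307 at times 24, 48 and 96, where they were not. Alternatives were other normalizations, filters, an offset, blocks, batches, probe set choices and leaving out arrays.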

Additional observations from a re-analysis of the deposited data

Results flagged for a closer look

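Between the MYCN line and the mock line, 2 probe sets differed in trend over the time steps by a test of the difference itself (limma interaction term, adjusted over all probe sets). TWIST1 differed by -0.19 log2 units per time step (SE 0.05, adjusted p = 0.00994), with trends of -0.16 in MYCN-line arrays and 0.03 in mock arrays. TWIST2 a differed by 0.12 per time step (SE 0.03, adjusted p = 0.00471), in the other direction. Each rests on the mock array of time 192: without it the values were -0.14 (adjusted p = 0.187) and 0.10 (adjusted p = 0.0968). The other TWIST2 probe set, b, was not called by the same test (0.15, SE 0.07, adjusted p = 0.148).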

How the results depend on the processing

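The 23 called probe-set comparisons gave 701 values under alternatives, of which 602 kept direction and call, 99 kept direction and lost the call, and 0 reversed. For a time against time 0, the fits within batch 1 and without replicate 3 are the same, and both are counted. Below, a percentage after a setting is the share of all probe sets called in that fit, where it was at hand. The number of the 18 probe sets called at time 24 (0, main fit 4.36%) became 1 with batch as a block (9.29%) and 1 with the replicate block (10.2%). At time 48 (1, main fit 9.43%) it became 2 with quantile normalization, 2 with a stricter filter and 2 with an offset added before log2. It became 4 with batch as a block (16.6%), 4 within batch 1 (12.9%) and 4 with the replicate block (17.8%). It became 0 with only the arrays of the 2 times (2.21%), and leaving out arrays gave 0 to 4. At time 96 (5, main fit 16.2%) it became 3 without _s_at and _x_at probe sets and 3 with 1 probe set per gene. It became 3 with only the arrays of the 2 times (10%) and 8 with the replicate block (24.9%), and leaving out arrays gave 0 to 7. At time 192 (4, main fit 18.6%) it became 7 with the replicate block (26.9%), 6 with batch as a block (25.6%) and 5 with only the arrays of the 2 times (10.9%). Leaving out arrays gave 1 to 5. The mock trend (1, main fit 1.82%) gave 2 with quantile normalization, 2 with a stricter filter and 0 with no filter (0.494%), and 0 to 2 leaving out arrays. The difference in trend (2, main fit 17.1%) gave 0 with late against early times and 0 to 2 leaving out arrays. The difference between the lines (10, main fit 25.4%) gave 6 without _s_at and _x_at probe sets, 6 with 1 probe set per gene and 6 within batch 2 (20.8%). Leaving out arrays gave 4 to 10. The replicate block at times 4 and 8 gave 0, as without it. At times 24, 48 and 96 the numbers were not taken as pairs, because of replicate 2. Replicates 1 and 3 did correlate best with their own time 0 arrays there, and same-numbered arrays share a batch. A setting with fewer probe sets or arrays lowers counts by construction; for the others the cause was not tested. Dim probe sets, with signals near 9.96, scatter widely on the log scale.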
